A study of Mus musculus with 51 samples.

Results

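The solute carrier (Slc) genes encode the membrane transporters through which cells take up or release sugars, amino acids, nucleosides, metal ions and other small molecules. They were followed here in CD8+ T cells sorted by flow cytometry from mouse mammary tumors of the AT3-OVA line and from spleen. Members were taken by symbol: Slc, a family number, letters and a member number, without symbols marked as pseudogenes. The rule gave 179 of 10560 genes in the table of untreated samples and 197 of 13458 in the table of samples given immune checkpoint blockade (ICB), with 170 in both. AT3-OVA cells are a mammary carcinoma line that makes ovalbumin, a foreign protein T cells can recognise. CD103 (encoded by Itgae) and CD69 are surface proteins that help T cells stay in tissues. Here DP stands for CD103+CD69+, SP for CD103-CD69+ and DN for CD103-CD69-. At weeks 1, 2, 4 and 6 there were 3, 4, 3 and 3 untreated libraries of DP, 3, 3, 2 and 3 of SP, and 2, 3, 3 and 2 of DN. Spleens labelled Cntrl gave 3 libraries each of the subsets labelled Naive, CM and EM. The ICB table held 3 DP, 3 SP and 2 DN libraries of day 40. The labels read here give neither the strain and age of the mice nor the blocking antibodies, and do not say whether a library is 1 animal or a pool. The p-values therefore measure the spread between these libraries, which may be technical.

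T cells that are activated or settle in a tissue change what they import. GLUT transporters (Slc2a) let glucose in and MCT transporters (Slc16a) pass lactate. The heavy chain Slc3a2 (CD98) pairs with light chains such as Slc7a5 to bring in large neutral amino acids, while Slc1a5 and the Slc38a carriers handle glutamine and other neutral amino acids. Slc28a and Slc29a carry nucleosides, Slc39a bring zinc and other metals into the cytosol, Slc30a remove zinc from it, and Slc25a shuttle metabolites across the inner mitochondrial membrane. Members were grouped by their family's usual substrate. The untreated table had 12 sugar, 9 organic acid, 29 amino acid and peptide, 6 nucleoside, 21 metal, 35 mitochondrial, 13 nucleotide sugar, 24 inorganic ion and 18 lipid, vitamin and organic ion carriers. A further 9 fell in no group, and 3 whose symbols carry more letters (Slc4a1ap, Slc7a6os, Slc9a3r1) were kept apart. The family rule puts some members beside genes of another role: Slc16a10 carries aromatic amino acids and Slc43a3 purine nucleobases.

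Values are those deposited, read as log2. They are not abundances, so levels were compared only within a gene and within a table. A difference is the first-named group minus the other, weeks weighted equally, with its standard error (SE). A gene was called at a limma adjusted p (Benjamini-Hochberg over all genes of the table) below 0.05. Itgae followed the sort only in part. At weeks 2 to 6 of the untreated table it was 3.39 ± 0.33 (SE) higher in DP than DN (limma adjusted p = 1.39e-06), but its difference of 1.21 ± 0.33 between DP and SP was not called (adjusted p = 0.091; 0.343 at week 1). SP, sorted as CD103- like DN, was 2.18 ± 0.35 above DN (adjusted p = 0.000184). Cd69 was higher than in DN by 0.97 ± 0.21 in DP (adjusted p = 0.00267) and 0.81 ± 0.23 in SP (adjusted p = 0.0175). In bulk samples, fewer cells of a type and less RNA per cell cannot be told apart. All DN libraries carry later library codes than most others, so subset and code are largely confounded. A fit with runs of codes as a term was made only for comparisons among untreated tumor groups, and is given where it ends calls. It was not made for comparisons with spleen. DN and spleen EM libraries share no run of codes, so subset and run cannot be told apart between them. Week 1 DP libraries stood apart: 10 of 13 T-cell marker genes were called lower than in week 1 SP, with a median difference of -0.68.

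With all libraries in the fit, more transporters were called between DP and spleen naive or EM cells than between tumor subsets or weeks. Against naive spleen cells, DP cells of weeks 2 to 6 had 34 members called higher and 43 lower of 179 (43%). Over all 10560 genes 47.2% were called, 22.2% higher and 25% lower, so the members' share was near the background. Against spleen EM cells 37 members were higher and 30 lower (37.4%), where 29.2% of all genes were called, 14% higher and 15.2% lower. That count fell to 38 without EM replicate 3 (17 higher, 21 lower) and to 41 without EM replicate 1 (19 and 22). Without EM replicate 1, calls over all genes fell to 1816, 884 of them higher. Calls over all genes without EM replicate 3 are not given here. DN cells of weeks 2 to 6 had 26 members higher and 15 lower than EM (22.9%), beside 19.5% of all genes, 10.6% higher and 8.9% lower. Leaving out EM replicate 3 gave 21, and EM replicate 1 also moved it by over 1.5 times, with 931 of all genes called. Quantile normalization gave 21 higher and 20 lower, beside 2139 of all genes, 943 of them higher. These comparisons share their DP or EM libraries and are not independent. Epithelial and tumor marker genes moved with them: all 5 measured were called higher in DP than EM (median difference 3.14) and 4 of 5 higher in DP than naive (median 1.66). Both measured B-cell markers were lower in DP than EM (median -2.26). Of 13 T-cell markers 3 were higher and 6 lower in DP than EM, and 2 and 4 in DP than naive. Of 9 myeloid markers 4 were higher and 1 lower in DP than EM, and 3 and 0 in DP than naive. In DN against EM all 5 epithelial markers were higher (median 2.95) and both B-cell markers lower. There 4 myeloid markers were higher and 2 lower, and 2 T-cell markers higher and 2 lower. Of 3 stroma markers 1 was lower in DP than EM and 1 than naive, and 1 was higher in DN than EM. The part of other cells' RNA in the transporter differences was not tested.

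**Figure D1:**
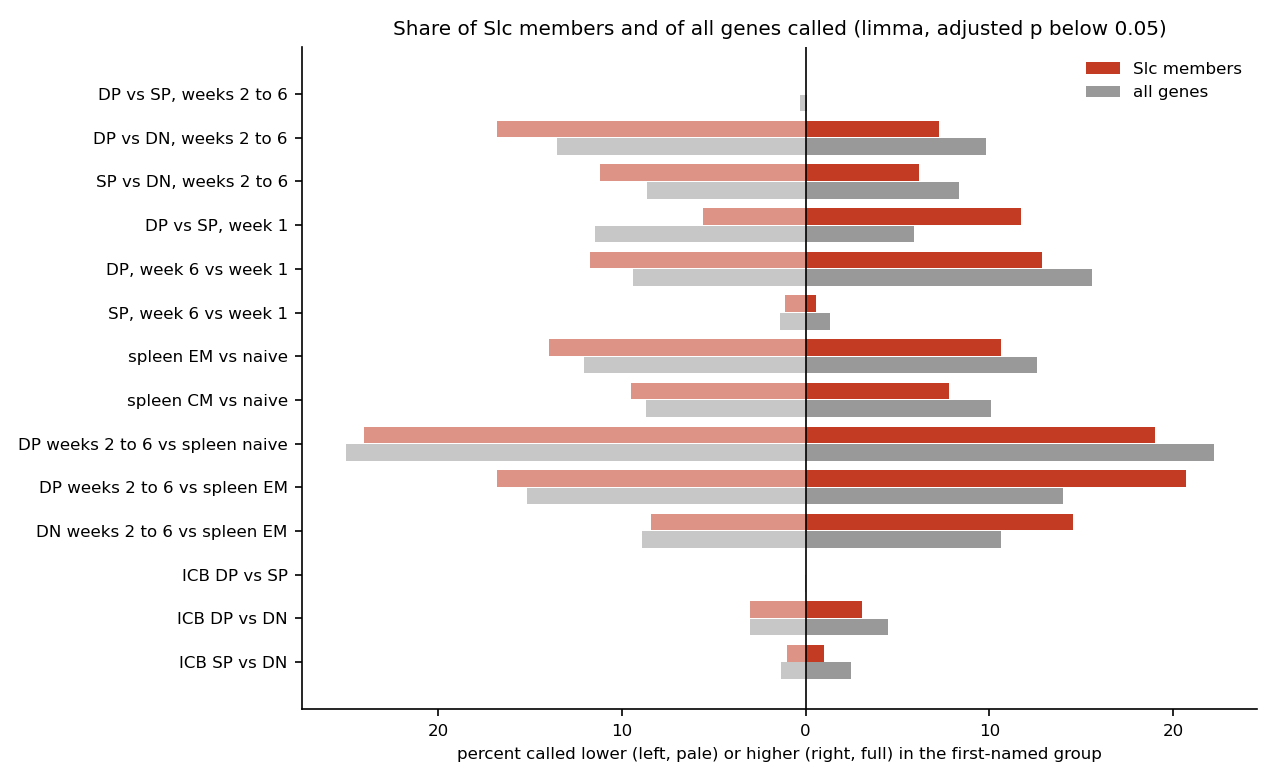
Percentage of Slc members and of all genes called higher (right) or lower (left, pale) in the first-named group of each comparison, by limma at an adjusted p below 0.05. The 2 kinds of bar are of similar length in most comparisons. In DP against spleen EM the members' bars are longer in both directions (37.4% against 29.2% in all). In DP against SP at week 1 their higher bar is longer (11.7% against 5.92%) and their lower bar shorter (5.59% against 11.5%).

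The lactate carrier was among the clearest of these. Slc16a3 (MCT4), which exports lactate from glycolytic cells, ran from 6.87 to 8.03 (median 7.32) over the 10 DP libraries of weeks 2 to 6. The naive libraries read 5.90, 5.34 and 6.23 and the EM libraries 5.29, 6.05 and 4.99. The groups did not overlap: every DP library was above every naive and EM library. The difference was 1.53 ± 0.30 (SE) from naive (limma adjusted p = 0.000298) and 1.91 ± 0.30 from EM (adjusted p = 7.73e-05). DN cells shared the height, at 1.52 ± 0.31 above EM (adjusted p = 0.00199), and DP and DN differed by 0.39 ± 0.22 (adjusted p = 0.215). The sister carrier Slc16a1 (MCT1) was within 0.17 of both spleen groups, with adjusted p of 0.518 and 0.508.

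Glucose transporters went different ways. Slc2a3 (GLUT3) was highest in spleen EM, whose libraries read 8.64, 8.57 and 8.67, against 7.84, 7.77 and 7.78 in naive cells. It ran from 7.59 to 8.44 in DP, below every EM library and overlapping the naive ones. EM exceeded naive by 0.83 ± 0.17 (limma adjusted p = 0.00117), and DP was 0.65 ± 0.14 below EM (adjusted p = 0.00153). Slc2a1 (GLUT1) leaned the other way, 0.47 ± 0.15 higher in DP than EM (adjusted p = 0.019). Without EM replicate 1 or 2 that call was lost, at adjusted p = 0.0646 and 0.0694. In DN, Slc2a1 was 0.75 ± 0.15 above EM (adjusted p = 0.00189) with no overlap between the groups. Over the 12 sugar carriers 3 were higher and 3 lower in DP than EM, beside 14% and 15.2% of all genes.

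Of the 29 amino acid carriers, 10 were called higher and 3 lower in DP than EM, beside 14% and 15.2% of all genes. Their median difference was 0.37, where the median of all genes was -0.03. Over all members the higher calls no longer outnumbered the lower ones without EM replicate 1 or 3, as given above; the split of these 29 was not recomputed there. Against naive cells the same group split 8 higher and 6 lower (22.2% and 25% of all genes), with a median of 0.02. Slc3a2 (CD98 heavy chain) ran from 5.27 to 5.96 in DP. The EM libraries read 4.53, 4.78 and 4.52, all lower, while the naive libraries read 5.29, 4.61 and 4.98 and reached the lowest DP value. DP exceeded EM by 1.06 ± 0.15 (limma adjusted p = 2.17e-05) and naive by 0.71 ± 0.15 (adjusted p = 0.000581). Its light chain Slc7a5 (LAT1) read 3.83, 3.84 and 3.95 in naive cells, 4.05, 4.00 and 4.11 in EM, and 4.32 to 5.24 in DP, again with no overlap. It rose by 0.94 ± 0.17 over naive (adjusted p = 0.000105) and 0.76 ± 0.17 over EM (adjusted p = 0.00175).

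Slc38a2 (SNAT2), a glutamine carrier induced when amino acids are short, had naive values of 4.69, 4.67 and 4.65 and DP values of 5.19 to 6.12. The difference was 0.91 ± 0.10 from naive (limma adjusted p = 1.41e-07) and 0.56 ± 0.10 from EM (adjusted p = 0.000178). The DP values were highest at week 4, where the 3 libraries read 5.88, 6.12 and 6.08. Slc1a5 (ASCT2) was 0.54 ± 0.13 above naive (adjusted p = 0.00232) but 0.07 ± 0.13 from EM (adjusted p = 0.749). Slc38a1 varied least of all members: its 15 group means spanned 0.30, where the median span was 1.28 for members and 1.14 for all genes. Slc7a1, Slc7a11 and Slc6a6 passed the test against neither spleen group, with differences of -0.07 to 1.00.

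**Figure D2:**
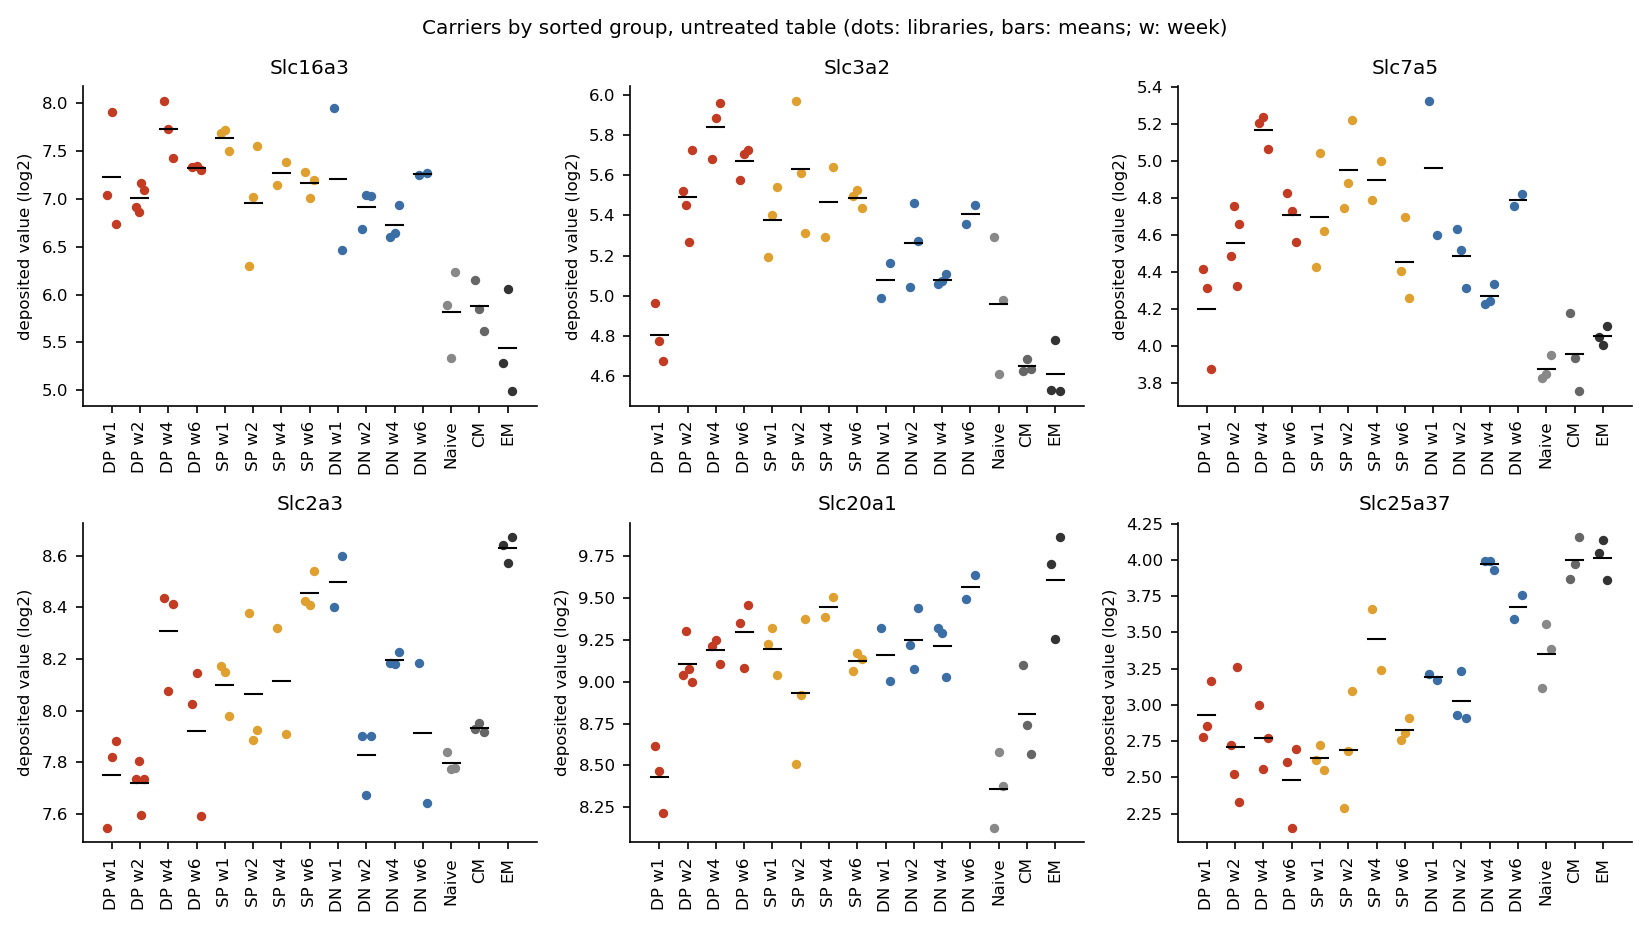
Deposited log2 values of 6 carriers in every library (dots) and group mean (bars) of the untreated table. Slc16a3 and Slc7a5 lie higher in the tumor groups than in spleen, Slc2a3 is highest in spleen EM, and Slc25a37 is lower in DP than in spleen EM.

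Other amino acid members with large differences had less even patterns. Slc15a3, a lysosomal histidine and peptide carrier, was 2.72 ± 0.42 higher in DP than EM (limma adjusted p = 5.54e-05) but -0.13 ± 0.42 from naive (adjusted p = 0.821). Its EM libraries spread from 14.74 to 17.23, and its 3' end overlaps an exon of Tmem132a on the other strand. The neutral amino acid carrier Slc6a19 was 2.93 ± 0.51 lower in DP than naive (adjusted p = 8.12e-05). Slc43a1 (LAT3) was 1.99 ± 0.52 higher than naive (adjusted p = 0.00387), and the nucleobase carrier Slc43a3 was 2.17 ± 0.28 higher (adjusted p = 2.55e-06). The arginine carrier Slc7a2 was 1.73 ± 0.52 above EM (adjusted p = 0.0173), a call lost without EM replicate 1 (adjusted p = 0.0788) or 3 (0.137). The glucose family member Slc2a6 was 1.48 higher than EM and lost its call without the same libraries (adjusted p = 0.0748 and 0.161).

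Nucleoside carriers moved singly. The lysosomal Slc29a3 (ENT3) ran from 11.94 to 12.78 in DP, below the naive libraries at 13.18 to 13.44. It was 0.93 ± 0.17 lower in DP than naive (limma adjusted p = 0.000192) and 0.99 ± 0.22 lower in EM than naive (adjusted p = 0.00185). Slc29a4 was 1.94 higher in DP than naive, a call lost without naive replicate 1 or 3, DP week 4 replicate 3 or DP week 6 replicate 3 (adjusted p of 0.0515 to 0.169). Slc28a2 (CNT2) was 0.72 ± 0.21 lower than EM (adjusted p = 0.0138), with adjusted p = 0.0814 and 0.119 without EM replicate 1 or 3. DN cells were 1.01 ± 0.22 below EM in Slc28a2 (adjusted p = 0.00295), with no overlap.

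Of the 21 metal carriers, 10 were called lower and 2 higher in DP than in naive cells, beside 25% and 22.2% of all genes, and 9 were not called. Their median difference was -0.44, against -0.05 over all genes. Against EM the same 21 split evenly, 5 higher and 5 lower (14% and 15.2% of all genes). Slc11a2 (DMT1), which brings iron into the cytosol, was 0.49 ± 0.18 lower than naive (limma adjusted p = 0.0268), a call lost without naive replicate 2 (adjusted p = 0.102) or 3 (0.0702). The zinc exporter Slc30a1 was 0.61 ± 0.19 lower (adjusted p = 0.0109), lost without naive replicate 2 (adjusted p = 0.0689). The zinc and iron importer Slc39a14 (ZIP14) read 14.53 to 14.58 in EM, 15.14 to 15.75 in naive and 15.10 to 15.76 in DP. It stood 0.88 ± 0.17 higher in DP than EM (adjusted p = 0.000691) and overlapped the naive range.

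Mitochondrial carriers split both ways. Of 35, 8 were higher and 6 lower than naive, beside 22.2% and 25% of all genes, and 6 higher and 4 lower than EM, beside 14% and 15.2%. Slc25a37 (mitoferrin 1), which imports iron into mitochondria, ran from 2.15 to 3.26 in DP, and its EM libraries read 4.05, 4.14 and 3.86, with no overlap. DP was lower than EM by 1.36 ± 0.19 (limma adjusted p = 1.88e-05) and than naive by 0.70 ± 0.19 (adjusted p = 0.00468). Slc25a37 is abundant in red-cell precursors, and the single hemoglobin marker measured was also called lower in DP, by 4.35 against EM, 4.20 against naive and 3.77 against DN; its part in the result was not tested. The phosphate carrier Slc25a3 was 0.44 ± 0.07 above EM (adjusted p = 6.25e-05) and 0.23 ± 0.07 above naive (adjusted p = 0.00993), small shifts with no overlap. The carnitine carrier Slc25a20 was 0.78 ± 0.19 above naive (adjusted p = 0.00238) and the citrate carrier Slc25a1 0.70 ± 0.15 above it (adjusted p = 0.000726). The ADP/ATP carrier Slc25a5 was 0.32 above naive and 0.35 above EM, and both calls were lost without single spleen libraries (naive replicates 1 and 3, adjusted p = 0.106 and 0.0765; each EM replicate, 0.055 to 0.0651). Slc25a4, its paralog, passed neither test. Slc25a24, an ATP-Mg/phosphate carrier, read 5.54 to 6.57 in naive cells and 7.63 to 8.26 in DP, a difference of 1.92 ± 0.21 (adjusted p = 3.1e-07).

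Ion carriers held some of the largest differences from naive. Slc9a5, a sodium/proton exchanger, was 2.62 ± 0.33 higher in DP (limma adjusted p = 1.33e-06), and Slc9a7, an exchanger of the Golgi, 2.07 ± 0.28 (adjusted p = 4.11e-06). Against EM they parted: Slc9a5 was 0.99 ± 0.33 higher (adjusted p = 0.0262) and Slc9a7 1.21 ± 0.28 lower (adjusted p = 0.00276). The potassium-chloride cotransporter Slc12a7 (KCC4) ran from 7.62 to 8.34 in DP, under EM at 8.69 to 8.80 and naive at 9.41 to 9.68. It was 1.60 ± 0.15 lower than naive (adjusted p = 2.53e-08) and 0.79 ± 0.15 lower than EM (adjusted p = 0.000472). The phosphate importer Slc20a1 was 0.83 ± 0.17 above naive (adjusted p = 0.000469).

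Of the named members, 19 of 24 calls against naive and 13 of 19 against EM were kept whichever library was left out. The other calls against naive and EM that turned on single libraries were those of the dicarboxylate carrier Slc13a3, 1.83 lower than naive (adjusted p = 0.1 without naive replicate 2), and of Slc25a33, 0.98 lower than EM (0.0501 to 0.118 without any of 5 libraries).

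**Figure D3:**
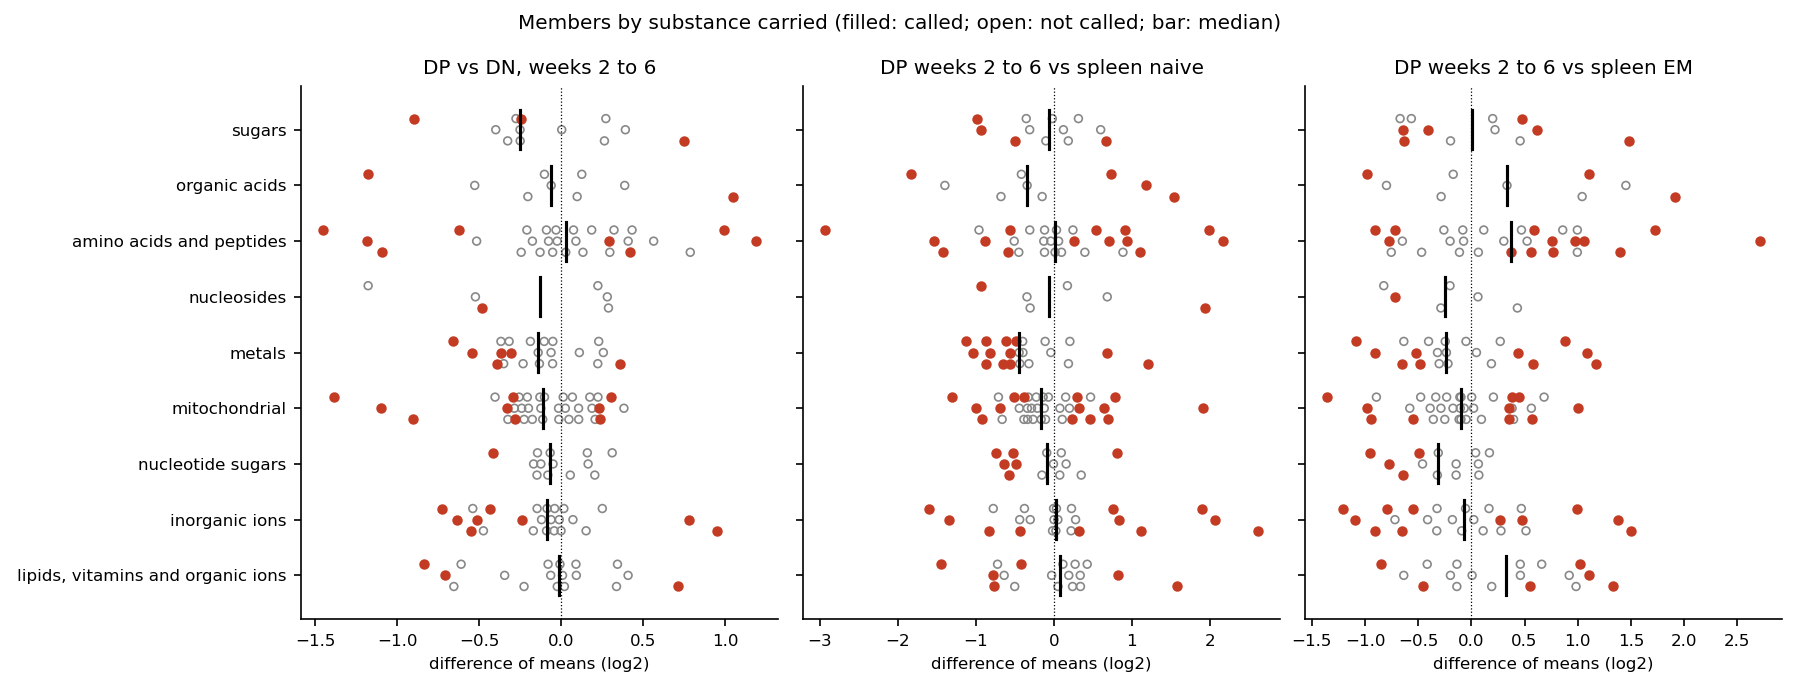
Difference of means (log2) of each member by substance carried, in 3 comparisons (filled points called, open points not called, bars medians). The metal carriers' bar lies at -0.44 against naive, and the amino acid carriers' bar at 0.37 against EM.

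Promoters were searched for CACGTG, the E-box bound by Myc and related factors, and for TGATGNAA, a form of the site bound by Atf4. RefSeq promoter entries (GRCm38.p6) matched 136 of the 179 members, and CACGTG (its own reverse complement) occurs in the 250 bases before the start of 22 of them (16.2%). It occurs in 10.3% of the 7684 matched genes of the whole table. Among members called in DP against naive it was in 3 of the 25 matched higher ones (12%) and 5 of the 35 matched lower ones (14.3%). TGATGNAA was in none of the 25 and in 2 of the 35 (both strands searched; 2.5% of the table's matched genes). Of the called members with CACGTG, 2 with large differences on each side are shown to place the motif, which is in capitals; each runs 5′ to 3′ and ends 1 base before the start of the RefSeq entry. That start lies inside the GENCODE gene for Slc43a1 and Slc12a7, 1473 and 30603 bases after the gene's first base, and within 33 bases of it for the others. Slc43a1 (chr2:84840073-84840322, + strand) and Slc20a1 (chr2:129198523-129198772, + strand) were higher in DP. Slc13a3 (chr2:165473198-165473447, - strand) and Slc12a7 (chr13:73763447-73763696, + strand) were lower.
Slc43a1: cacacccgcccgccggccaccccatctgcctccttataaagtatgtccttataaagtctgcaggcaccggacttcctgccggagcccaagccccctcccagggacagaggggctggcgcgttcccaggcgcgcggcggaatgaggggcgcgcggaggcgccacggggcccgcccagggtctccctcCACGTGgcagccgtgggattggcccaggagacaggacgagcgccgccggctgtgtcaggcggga
Slc20a1: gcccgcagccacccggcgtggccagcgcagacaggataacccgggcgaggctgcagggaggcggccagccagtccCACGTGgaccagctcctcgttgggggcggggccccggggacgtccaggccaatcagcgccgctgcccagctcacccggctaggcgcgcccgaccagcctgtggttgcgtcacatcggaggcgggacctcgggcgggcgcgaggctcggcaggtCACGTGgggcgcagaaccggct
Slc13a3: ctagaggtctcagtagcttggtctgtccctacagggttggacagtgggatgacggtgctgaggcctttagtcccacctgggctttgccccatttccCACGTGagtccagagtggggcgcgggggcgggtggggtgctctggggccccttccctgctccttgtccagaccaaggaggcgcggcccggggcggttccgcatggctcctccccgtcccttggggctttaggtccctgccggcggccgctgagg
Slc12a7: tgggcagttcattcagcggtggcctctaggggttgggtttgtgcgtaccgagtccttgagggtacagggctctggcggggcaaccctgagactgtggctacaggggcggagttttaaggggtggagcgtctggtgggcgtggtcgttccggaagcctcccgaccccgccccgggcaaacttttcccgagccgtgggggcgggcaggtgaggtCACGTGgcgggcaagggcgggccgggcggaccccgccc
The motif begins 64 bases before the start in Slc43a1, 175 and 22 in Slc20a1, 154 in Slc13a3 and 38 in Slc12a7. In DP against naive it is found among higher and lower members alike. In DP against EM it was in 3 of 28 matched higher and 3 of 23 matched lower members. In DP against DN it was in 0 of 12 and 2 of 21.

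Within spleen, EM cells had 19 members higher and 25 lower than naive cells (24.6%), the same share as all genes (24.6%, 12.6% higher and 12% lower). The count was 29 without EM replicate 1, beside 1720 of all genes. CM cells had 14 higher and 17 lower (17.3%), beside 18.8% of all genes, 10.1% higher and 8.7% lower. That count fell to between 14 and 19 without naive replicate 1 or 3 or CM replicate 2 or 3. Without CM replicate 2 or 3, 1346 and 1338 of all genes were called. Calls over all genes without naive replicate 1 or 3 are not given here. Marker genes moved in both: 2 of 5 epithelial markers were called lower in EM than naive (median -1.19) and 2 of 5 higher in CM (median 1.19). Of 9 myeloid markers 2 were lower and 1 higher in EM, and of 13 T-cell markers 2 were lower and 1 higher in EM, and 4 lower and 2 higher in CM. Their part in the counts was not tested. Slc9a7 read 15.07 to 15.60 in EM, 14.30 to 14.36 in CM and 11.81 to 12.58 in naive cells. EM exceeded naive by 3.28 ± 0.35 (limma adjusted p = 4.14e-07) and CM by 2.25 ± 0.35 (adjusted p = 0.0001). Slc25a24 showed the same order, with 2.39 ± 0.26 (adjusted p = 7.57e-07) and 1.35 ± 0.26 (adjusted p = 0.00114). Slc20a1 was 1.24 ± 0.21 higher in EM (adjusted p = 0.00017), reading 9.70, 9.25 and 9.86 against 8.13, 8.58 and 8.38.

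Members lower in EM than naive included Slc13a3, Slc15a3 and the glutamine carrier Slc38a3, at -2.88, -2.85 and -2.82 (limma adjusted p of 0.000311 for Slc15a3 and 0.000846 for Slc38a3). The aromatic amino acid carrier Slc16a10 was 1.78 ± 0.36 lower in EM (adjusted p = 0.00103) and 1.75 ± 0.36 lower in CM (adjusted p = 0.00188), with no overlap. Slc6a19 was 2.28 lower in EM and 2.18 lower in CM; the calls were lost without naive replicate 1 (adjusted p = 0.0511 and 0.0805), and the CM call also without naive replicate 3 (0.065) or CM replicate 1 (0.0578). Metal carriers had 4 of 21 lower and none higher in EM, beside 12% and 12.6% of all genes. Slc39a14 was among them, 0.91 ± 0.21 lower (adjusted p = 0.00321).

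Among tumor subsets, no member separated DP from SP at weeks 2 to 6. None was called by limma, where 0.417% of all genes were; 30 members had an unadjusted p below 0.05. Using the design's own degrees of freedom 15 were called, beside 1044 of all genes. Without DP week 2 replicate 4, SP week 2 replicate 2 or SP week 4 replicate 1, 1 was called, beside 43, 114 and 40 of all genes. Against DN, DP had 13 members higher and 30 lower (24%), beside 23.3% of all genes, 9.8% higher and 13.5% lower. SP had 11 higher and 20 lower (17.3%), beside 17% of all genes, 8.33% higher and 8.64% lower. With runs of library codes in the fit, 10 DP and 4 SP calls were left, and calls over all 10560 genes fell as well, to 533 and 286. The stroma and hemoglobin markers moved with the DP comparison: all 3 stroma markers measured (median -1.21) and the single hemoglobin marker (-3.77) were lower in DP. So did 2 of 5 epithelial markers, which were lower, 2 of 9 myeloid markers, which were higher, and 5 of 13 T-cell markers, 2 higher and 3 lower. In SP against DN 4 T-cell markers were higher and 1 stroma marker lower. The part of these in the counts was not tested.

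Slc25a37 was again prominent, lower in DP than DN by 0.90 ± 0.14 (limma adjusted p = 8.65e-05), and the call held with the code runs in the fit. DN week 4 and week 6 libraries, at 3.59 to 3.99, stood above every DP library, while week 2 DN libraries, at 2.91 to 3.24, fell inside the DP range. The single hemoglobin marker, relative to its mean over all libraries, had DN means of -1.62, 1.91 and 2.19 at weeks 2, 4 and 6. Its DP means were -2.31, -5.70 and -0.82, and its part in the Slc25a37 difference was not tested. Slc36a4 (PAT4), an amino acid carrier of internal membranes, was 1.19 ± 0.22 higher in DP (adjusted p = 0.000688) and also held. The DN week 4 libraries carried much of it, reading 11.82, 11.87 and 12.82, against 14.32 to 15.30 in the other DN libraries of weeks 2 and 6 and 14.68 to 15.56 in DP. Slc16a10 was 1.05 ± 0.21 higher (adjusted p = 0.0014) and the mitochondrial Slc25a35 1.38 ± 0.26 lower (adjusted p = 0.000624), and the ATP-Mg/phosphate carrier Slc25a23 was 1.10 ± 0.20 lower (adjusted p = 0.000596). These 3 calls held with the code runs too, as did that of the lysosomal sialic acid carrier Slc17a5, 0.99 higher (adjusted p = 0.0208).

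For other named members the DP against DN call ended with the code runs in the fit, 13 of 19 in all. The nucleoside carrier Slc29a1 (ENT1) ran from 7.85 to 8.62 in DP and 8.63 to 9.28 in DN, without overlap and 0.48 ± 0.11 lower (limma adjusted p = 0.00345), but was one such case. Slc3a2 (0.42 ± 0.11 higher, adjusted p = 0.00815), Slc38a2 (0.29 ± 0.07 higher, adjusted p = 0.00493) and Slc25a3 (0.24 ± 0.05 higher, adjusted p = 0.00176) were others, as were Slc9a5 (0.95 higher), Slc38a3 (1.45 lower) and Slc16a5 (1.18 lower). Slc25a4 also lost its call without DN week 6 replicate 2 (adjusted p = 0.0777). Slc43a1, Slc24a1, Slc11a2, Slc39a14 and Slc25a5 lost theirs on leaving out any of 5, 10, 14, 13 and 12 of the 18 libraries. In SP, the fatty acid transport family member Slc27a3 was 1.48 ± 0.26 below DN (adjusted p = 0.000545), and held with the code runs. Its DN libraries, at 11.97 to 13.43, lay above every SP library, at 9.50 to 11.95. The vesicular nucleotide carrier Slc17a9 was 1.04 ± 0.19 lower in SP (adjusted p = 0.000602), without overlap, and did not hold.

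At week 1, unlike at the later weeks, DP and SP differed. DP had 21 members higher and 10 lower than SP (17.3%), where 17.4% of all genes were called, 5.92% higher and 11.5% lower. With medians rescaled the members' split was 29 and 7, beside 1729 of all genes, 840 of them higher. Without SP replicate 3 it was 8 and 9, beside 1285 of all genes, 376 of them higher. A fit of the compared libraries alone called none of the members, and 1 of all genes. The members' count fell to 17 without SP week 1 replicate 3, with SP replicate 2 also moving it by over 1.5 times. The contrast of the DP-SP difference at week 1 with that at weeks 2 to 6 was called for 18 members in the higher and 11 in the lower direction (16.2%), beside 14.7% of all genes, 5.72% and 9.02%. That count fell to 16 without SP week 1 replicate 3, beside 1078 of all genes. SP week 1 replicate 1 and DP week 1 replicate 3 also moved it by over 1.5 times. Rescaled medians gave 22 and 5, beside 1501 of all genes, 772 of them in the higher direction.

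Slc12a2 (NKCC1), which brings sodium, potassium and chloride into the cell, had the widest span of any member, 6.30 between group means. Its DP week 1 libraries read 11.45, 11.83 and 10.94, its SP week 1 libraries 8.96, 9.11 and 8.53, and its DN week 1 libraries 6.03 and 6.36. The 3 subsets did not overlap. DP exceeded SP by 2.55 ± 0.34 (limma adjusted p = 4.33e-05), a call lost only in the fit of the compared libraries alone. The 5 epithelial and tumor markers measured had the same order of group means at week 1, at 2.93 in DP, 2.24 in SP and -1.31 in DN (mean over the markers, each relative to its mean over all libraries). Between DP and SP 1 of the 5 was called higher (median difference 0.74), and their part in the Slc12a2 differences was not tested. At week 4 the DP libraries read 5.84, 6.33 and 5.30. The citrate carrier Slc25a1 read 6.14 to 6.50 in week 1 DP and 5.10 to 5.39 in SP, 1.12 ± 0.19 higher (adjusted p = 0.00034). Slc25a40, tied to mitochondrial glutathione, was 1.72 ± 0.39 lower (adjusted p = 0.0046), its DP libraries reading 8.70, 9.31 and 7.30. Slc39a3, Slc33a1, Slc25a28 and Slc39a1 kept their week 1 calls in each leave-out too, with differences of 1.21, -1.12, -0.84 and 0.62. The calls of Slc3a2 (0.57 lower) and Slc20a1 (0.76 lower) were lost without single week 1 libraries (4 for Slc3a2, at adjusted p of 0.07 to 0.124; DP replicate 3 and SP replicate 2 for Slc20a1, 0.0731 and 0.0606).

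**Figure D4:**
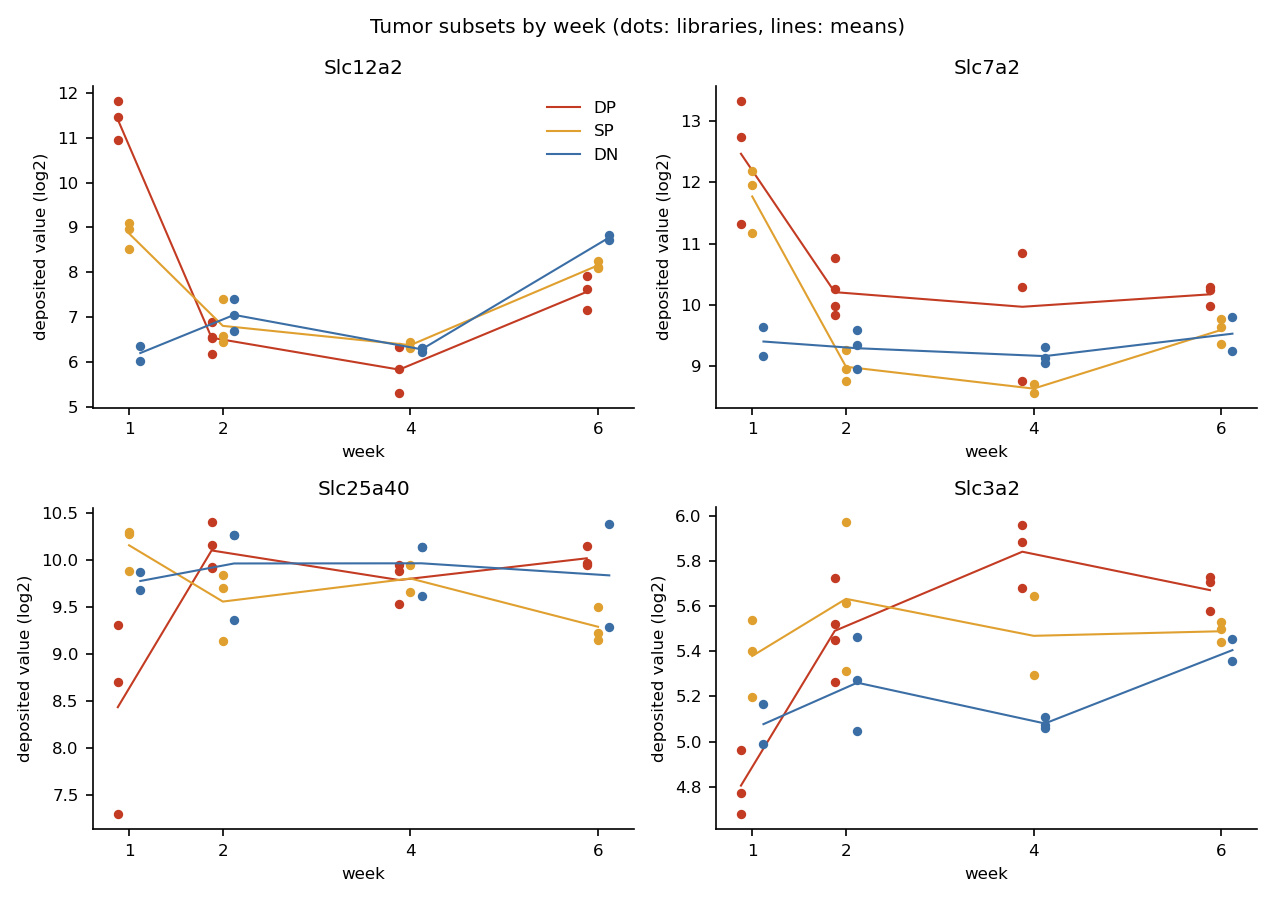
Deposited log2 values of 4 carriers by week in DP, SP and DN (dots libraries, lines means). Slc12a2 and Slc7a2 have their highest tumor means in week 1 DP, where Slc25a40 and Slc3a2 have their lowest.

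Within DP, week 6 differed from week 1 in 23 members higher and 21 lower (24.6%), beside 25% of all genes, 15.6% higher and 9.37% lower. Rescaled medians gave 12 and 24, beside 2652 of all genes, 1221 of them higher. The compared libraries alone gave 8 in all, beside 583 of all genes. The members' count fell to 24 without DP week 6 replicate 2 (1872 of all genes), with DP week 6 replicate 1 also moving it by over 1.5 times. With week 2 in place of week 1 it was 1 (26 of all genes), so the count rests on week 1. Code runs in the fit left 28, beside 2124 of all genes. They ended 7 of the 19 named calls (Slc17a5, Slc26a10, Slc2a1, Slc6a6, Slc28a2, Slc39a14 and Slc25a3, at limma adjusted p of 0.0548 to 0.0844). Marker genes moved with it: 4 of 5 epithelial markers were called lower at week 6 (median -2.62) and 9 of 13 T-cell markers higher (median 0.76). The single hemoglobin marker (by 3.08) and 1 of 3 stroma markers were also called lower. The part of these markers in the counts was not tested. Slc12a2 differed by -3.85 ± 0.34 at week 6 (limma adjusted p = 1.47e-07), but was 1.02 higher than at week 2. Slc7a2 fell from 12.75, 13.33 and 11.32 to 10.29, 9.98 and 10.25, by 2.29 ± 0.65 (adjusted p = 0.0133), and lost the call without DP week 1 replicate 2 (0.0627). Slc3a2 rose by 0.87 ± 0.18 (adjusted p = 0.00168) and Slc20a1 by 0.86 ± 0.21 (adjusted p = 0.00531). In SP only 3 members were called (1.68%, 1 higher and 2 lower), beside 2.72% of all genes, 1.34% higher and 1.37% lower. These were Slc39a6 (0.60 higher), Slc25a22 (0.87 lower) and Slc4a2 (0.55 lower); 0 or 1 of the members was called on leaving out any 1 of the 6 SP libraries. With the code runs in the fit the calls of Slc25a22 (adjusted p = 0.0912) and Slc4a2 (0.0653) ended.

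In the ICB table the number of members called between subsets depended on the degrees of freedom. DP and SP differed in none by limma (33 with an unadjusted p below 0.05), beside 0.0372% of all genes. Itgae was not called there either, though 2.35 ± 0.21 (SE) higher in DP (limma adjusted p = 0.0849). The lack of calls therefore does not show the subsets to be alike. Against DN, Itgae was called in DP (4.46 ± 0.24 higher, adjusted p = 0.00477) and SP (2.11 ± 0.24, adjusted p = 0.0283). Cd69 was called in none of the 3 comparisons (adjusted p of 0.112 to 0.86). DP differed from DN in 6 members higher and 6 lower (6.09%), beside 7.49% of all genes, 4.47% higher and 3.02% lower, and SP in 2 and 2 (2.03%), beside 3.83%, 2.47% and 1.36%. With the design's own degrees of freedom the 3 comparisons had 55, 90 and 82 members called, beside 3250, 6101 and 5217 of all 13458 genes. The DP against DN count ranged from 6 to 34 with 1 library left out, moved by over 1.5 times without DN replicate 1 or 2 or DP replicate 1 or 3. The SP against DN count ranged from 2 to 19, moved by DN replicate 1 and SP replicates 1 and 3. DP against SP ranged from 0 to 13, moved by each DP replicate and SP replicate 1. Calls over all genes in these leave-out fits are not given here, so the ranges are not set against the background. Rescaled medians left 1 higher and 2 lower in SP against DN, beside 537 of all genes, 338 of them higher. Myeloid markers moved with the DP comparison: 8 of 11 were called higher in DP than DN (median 2.19). In DP against DN 2 of 13 T-cell markers were also higher and 1 lower, and 1 of 7 epithelial and 1 of 4 stroma markers were higher. In SP against DN 4 T-cell markers, 1 epithelial marker and 1 stroma marker were called higher, none lower (T-cell and epithelial medians 0.32 and 1.52). The part of these markers was not tested.

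Slc16a5, of the monocarboxylate family, had ICB DP values of -6.23, -5.77 and -4.39 and DN values of 1.20 and 0.46, a difference of -6.30 ± 1.03 (limma adjusted p = 0.0322). The SP libraries fell between, at -1.07, -3.13 and -2.28. The nucleobase carrier Slc43a3 was 0.92 ± 0.16 higher in DP (adjusted p = 0.0365), reading 9.46, 9.42 and 9.33 against 8.42 and 8.54. The zinc carrier Slc39a13 (ZIP13) was 0.89 ± 0.16 higher (adjusted p = 0.0406) and the magnesium carrier Slc41a2 0.75 ± 0.12 higher (adjusted p = 0.0318), both without overlap. Slc39a4 and Slc39a8, 2 more metal importers, were 1.42 and 1.12 higher, and Slc23a1, Slc17a9, Slc39a7 and Slc30a1 2.52, 1.29, 1.01 and 0.54 lower. All 6 calls were lost without DN replicate 1, and all but that of Slc23a1 also without DN replicate 2, at adjusted p of up to 0.231 (Slc17a9). Those of Slc39a8, Slc39a7 and Slc17a9 were also lost without DP replicate 2, and that of Slc17a9 without DP replicate 1.

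Slc2a3 and Slc12a7 were called in SP against DN and kept the call in every leave-out. The part of the marker shifts between SP and DN in these calls was not tested. Slc2a3 read 11.83 to 12.14 in ICB SP and 11.27 and 11.31 in DN, 0.70 ± 0.11 higher (limma adjusted p = 0.0433). Slc12a7 read 9.50, 9.55 and 9.53 in SP, 9.79, 9.78 and 9.74 in DP and 10.36 and 10.38 in DN. It was 0.84 ± 0.09 lower in SP (adjusted p = 0.0188) and 0.60 ± 0.09 lower in DP (adjusted p = 0.0278), the latter lost without either DN library (0.075 and 0.0807).

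**Figure D5:**
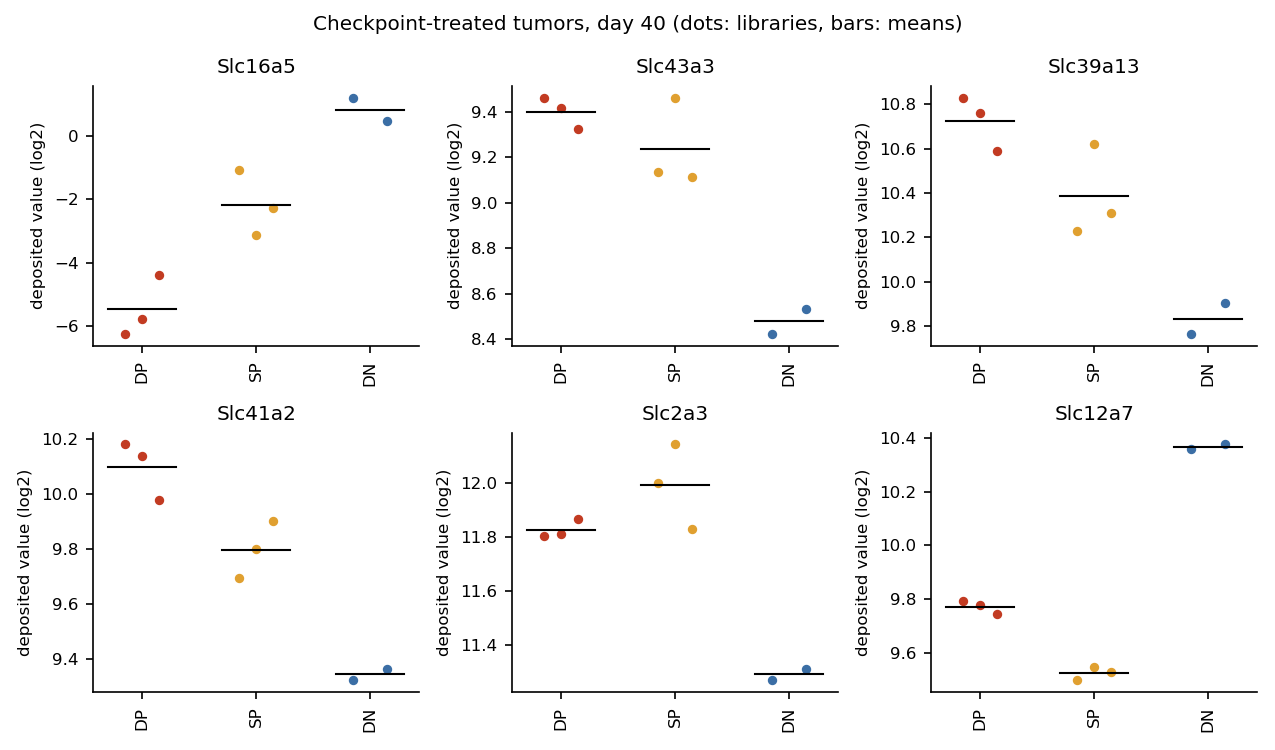
Deposited log2 values of 6 carriers in each ICB library (dots) and group mean (bars). Slc16a5 and Slc12a7 are highest in the 2 DN libraries, and the other 4 are lowest there.

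The tables, which were deposited and analysed apart, were compared by sign and by call. Of 40 members called in untreated DP against DN and present in the ICB table, 19 had the same sign there (47.5%), where 64.7% of all called genes did. Called in both were 2, which is 5% of the untreated and 20% of the ICB calls, where over all genes 374 were called in both, 15.6% and 45.7%. For SP against DN 20 of 30 had the same sign (66.7%), beside 70.5% of all called genes. There 1 member was called in both, 3.33% of the untreated and 25% of the ICB calls, beside 13.5% and 52.2% over all genes.

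Of 32 listed genes that work beside the carriers, 27 were measured in the untreated table. Against naive, DP had 6 of them higher and 10 lower, beside 22.2% and 25% of all genes, with a median difference of 0.02. Against EM it had 8 and 7, beside 14% and 15.2%. The list was meant for counts, and the genes named below were chosen after their values were seen. Hk2 and Lrrc8a had its highest and lowest differences from naive, and all but Tfrc are given against naive only. Bsg, the chaperone that brings Slc16a3 to the membrane, was 0.68 ± 0.12 above naive (limma adjusted p = 0.000105). Hk2, hexokinase 2, was 1.20 ± 0.17 above naive (adjusted p = 6.88e-06), and Txnip, which restrains glucose uptake, 1.13 ± 0.16 below it (adjusted p = 7.7e-06). The transferrin receptor Tfrc was higher in DP than in naive (0.55 ± 0.14, adjusted p = 0.00377), EM (0.61 ± 0.14, adjusted p = 0.00321) and DN (0.61 ± 0.10, adjusted p = 0.000283). The sodium pump subunit Atp1b3 was 1.23 ± 0.14 below naive (adjusted p = 4.78e-07) and the volume-regulated channel subunit Lrrc8a 1.91 ± 0.15 below it (adjusted p = 1.01e-09).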

How the data were processed

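Libraries were made from 10 ng of total RNA with a 3' mRNA-Seq kit and read on a NextSeq500 (75 bases, single-end), per the labels' protocols. The submitters' processing notes name HISAT2, HTSeq and mm10. The authors' values were taken as log2, which is inferred from their range; how they were normalized is not given in the sources used here. Read depth is unknown. The tables (43 untreated and 8 ICB libraries) were deposited and analysed apart. limma 3.58.1 (R 4.3.3) was fitted to group means with trend and robust moderation, all groups sharing 1 spread. The libraries spanned fewer dimensions than their number allows (rank 32 of 42 and 4 of 7), so residual degrees of freedom were multiplied, and variances divided, by 0.6429 and 0.4. Scripts were tested on simulated data. Members, lists and tests were chosen with earlier results of these data known. Named members were a list of nutrient carriers and, in each comparison, up to 5 called members per direction with the largest difference. Some of these are also given in other comparisons, chosen after their values were seen. Marker and neighbouring genes were fixed lists, and the neighbouring genes named singly were chosen after their values were seen. Alternatives were quantile and median rescaling, the lowest values left out, code runs, replicate block, compared libraries alone and single libraries left out. The result of 1 member is not reported here.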

Additional observations from a re-analysis of the deposited data

Results flagged for a closer look

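One library stood apart from its group in 2 of 81 named members tested in DP week 2, where chance flags about 1 in 20 such groups. Slc12a7 read 7.92, 7.97, 7.99 and 8.34, with a gap of 0.842 of the range above the third value. Slc25a4 read 0.98, 1.28, 1.32 and 1.32, with a gap of 0.882 of the range below the second.

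For 13 named members the DP minus SP difference at week 1 was called as different from that at weeks 2 to 6 (limma, adjusted over all genes). As a signed value it was higher at week 1 by 3.01 for Slc12a2, 1.92 for Slc16a5, 1.7 for Slc16a13, 1.52 for Slc44a1, 1.44 for Slc2a9, 1.21 for Slc25a1 and 0.59 for Slc39a1. The signed value was lower at week 1 by -2.14 for Slc25a40, -1.04 for Slc33a1, -1.01 for Slc35f2, -0.91 for Slc25a28, -0.79 for Slc20a1 and -0.71 for Slc3a2. A lower signed value does not mean that the subsets were more alike. Slc25a40 and Slc3a2, for example, were called lower in DP than SP at week 1. Of these 13 calls 5 were kept whichever library was left out, and those of Slc35f2 (limma adjusted p = 0.0545) and Slc20a1 (0.0508) ended with runs of library codes in the fit. T-cell markers were lower in DP than SP at week 1 as well, and their part was not tested.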

How the results depend on the processing

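Read depth is unknown, groups hold 2 to 4 libraries, and the spread is shared over all groups. Counts of called members moved with the degrees of freedom, the code runs and the libraries in the fit. With the design's own degrees of freedom they were 15 for DP against SP, 69 for DP against DN, 49 for SP against DN, 69 for DP against SP at week 1, 67 and 25 for week 6 against week 1 in DP and SP, 49 for CM against naive, 64 for DN against EM, 64 for the contrast of weeks, and 55, 90 and 82 for ICB DP against SP, DP against DN and SP against DN. Over all 10560 untreated genes the same fits called 1044, 3947, 3323, 3400, 4196, 1380, 3425, 3661 and 3249, in this order. In the ICB table they called 3250, 6101 and 5217 of 13458. Code runs in the fit left 10 for DP against DN, 4 for SP against DN, and 28 and 1 for week 6 against week 1 in DP and SP. Beside these, 533, 286, 2124 and 160 of all genes were left. With the compared libraries alone there were 0 for week 1 (fewer libraries inform the spread), 8 and 9 for week 6 against week 1, 22 for EM against naive, 25 for DN against EM and 16 for the contrast of weeks. Over all genes these fits called 1, 583, 559, 1209, 1239 and 1087. Pooling weeks 1, 2, 4 and 6 gave 2 for DP against SP, beside 368 of all genes.

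With 1 library left out, counts ranged from 0 to 1 for DP against SP, 32 to 43 for DP against DN, 21 to 31 for SP against DN, 17 to 29 for week 1, 24 to 34 and 0 to 1 for week 6 in DP and SP, 29 to 47 for EM and 14 to 32 for CM against naive, 62 to 78 and 38 to 68 for DP against naive and EM, 21 to 44 for DN against EM, 16 to 31 for the contrast of weeks, and 0 to 13, 6 to 34 and 2 to 19 in the ICB table. With week 2 in place of week 1 (chosen after seeing the data) 1 member was called in DP, and the differences of Slc25a40 (-0.083), Slc12a2 (1.02), Slc25a23 (0.37), Slc2a1 (0.40), Slc28a2 (-0.14), Slc39a1 (0.36), Slc25a1 (0.26) and Slc25a3 (-0.064) changed sign; the cause was not tested. Quantile normalization gave 1 higher and 3 lower for ICB SP against DN and 1 and 1 for SP week 6 against week 1. Over all genes it called 549 (278 higher) and 267 (118 higher). In leave-out fits with the lowest and highest member counts, calls over all genes differed as well. They were 1285 and 1819 for week 1, 1720 and 2843 for EM against naive, and 1078 and 1527 for the contrast of weeks. For DP against DN they were 1922 and 1905 at the lowest member count and 2167 at the highest. Those of the ICB leave-out fits, and of some others, are not given here.

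Replicate numbers showed no pairing of the untreated libraries: same-numbered libraries had a median correlation of deviations of 0.0025 (56 of 276 pairs above 0.1), and 11 of 43 correlated best with their own number. Nor did they show any in the ICB table, where 4 of 7 same-numbered pairs were above 0.1, from -0.995 to 0.92, and 7 of 14 other pairs were. Both tables span fewer dimensions than their libraries allow (rank 32 of 42 and 4 of 7). These correlations therefore cannot decide whether the numbers mark pairs. The replicate block gave 35 calls for DP against DN, 78 and 67 for DP against naive and EM, and 12, 19 and 11 for ICB DP against SP, DP against DN and SP against DN. Over all genes it called 2214, 4908 and 2967, and 628, 1721 and 1213 in the ICB table.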
